A study of Rattus norvegicus with 10 samples.

Results

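The 26S proteasome is the protease that breaks down proteins tagged with ubiquitin. The genes described here encode its subunits and the chaperones that assemble it, measured in hearts of aged and adult rats. Members were taken by gene symbol: a probe set counted if its only symbol in the platform annotation began with Psma, Psmb, Psmc, Psmd, Psme, Psmf or Psmg followed by a digit, or was Pomp or Adrm1, and probe sets of a gene were averaged. This rule gave 48 genes on 62 probe sets, of 14217 genes measured, and used no measured value. Of the 48, 46 encode parts or assembly chaperones of the proteasome, and 2, Psmc3ip and Psme3ip1, carry the name of a proteasome partner and are counted apart. The subunit genes Psma8, Psmb6, Psmb11 and Psme3 had no probe set of their own. For Psmb6 and Psme3 the table held probe sets that name other genes beside them, which were left out.

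The 5 aged samples came from rats of 24 months and the 5 adult samples from rats of 6 months. All were male Fischer-344, an inbred strain widely used in research on aging, fed standard chow and given no other treatment that the labels name. RNA was extracted with TRIzol, amplified over 2 cycles and hybridised to the Affymetrix Rat Genome 230 2.0 array, 1 array per sample. The sample protocols name the whole heart, and the series text the ventricles, so the labels do not settle whether atria were included. Nor do they say that each array is a separate rat, and p-values measure the spread between these arrays, which may in part be technical. Titles number the aged arrays 2 to 6 and the adult arrays 1, 2, 3, 4 and 6.

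In the proteasome, proteins are cut inside a barrel, the 20S core, whose outer rings are made of alpha subunits and whose inner rings, which hold the active sites, of beta subunits. A 19S cap sits on the barrel. Its base has a ring of ATPases that unfold substrates and receptors that bind ubiquitin, and its lid holds the enzyme that removes ubiquitin chains. Interferon gamma and other inflammatory signals induce alternative beta subunits and an alternative cap, the immunoproteasome, known for producing peptides for display on major histocompatibility complex (MHC) class I. In heart muscle the proteasome takes part in the turnover of contractile proteins.

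All values are log2 values relative to the median of each probe set over the 10 arrays, with the base of the logarithm inferred, so 0 is that median and no absolute level is known. Differences are aged minus adult with their standard error (SE), and adjusted p is limma's, over all 14217 genes. A gene rose or fell where adjusted p was under 0.05. The heart label was checked against 14 cardiomyocyte markers, all of which had a probe set in the brightest of 3 approximate brightness classes inferred from the table's number format. Of the 48 members, 36 (75%) had a probe set in that class, against 19.4% of all genes. Aged replicates 3 and 6 had the highest scores for T and natural killer (NK) lymphocyte markers, 1.05 and 0.82, against 0.03 to 0.22 on the other aged arrays and -0.36 to 0.01 on the adult arrays. A score is the mean log2 value of a marker list on an array.

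Most proteasome genes differed little between the ages, and the direction of the mean differences varied by part, which was not tested. Of the 46 proteasome genes, 0 rose and 2 fell, Psma7 and Psmd7, while 6.77% of all genes rose and 5.09% fell. At an unadjusted p under 0.05, 5 were higher and 12 lower in aged hearts, and 10 of those 12 belong to the 31 core, base and lid genes. The 12 became 5 without aged replicate 5, 6 without adult replicate 1 or adult replicate 3, and 3 without both aged replicates 3 and 6. On all arrays that limit was passed upward by 14.3% and downward by 12% of all genes. Calls over all genes also became fewer in these settings. By adjusted p, 724 of all genes fell on all arrays and 406 without aged replicate 5. The number was 611 without adult replicate 1, 430 without adult replicate 3 and 356 without both aged replicates 3 and 6. Mean values were lower in aged hearts in 30 of the 46 genes (65.2%), against 51.8% of all genes. Leaving out aged replicate 2 made that number 31, and leaving out both aged replicates 3 and 6 made it 28. The median difference was -0.06 over the 46 genes and -0.01 over all genes. By part, 8 of 13 constitutive core genes, 10 of 10 base genes and 7 of 8 lid genes had lower means in aged hearts, with medians of -0.02, -0.14 and -0.08. Of the 5 immunoproteasome genes, 4 had higher means, with a median of 0.20. The 2 partner genes gave -0.05 ± 0.06 SE for Psmc3ip, which encodes a protein of meiotic recombination, and -0.06 ± 0.05 SE for Psme3ip1, which encodes a binding partner of the Psme3 cap, and neither passed the test.

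**Figure D1:**
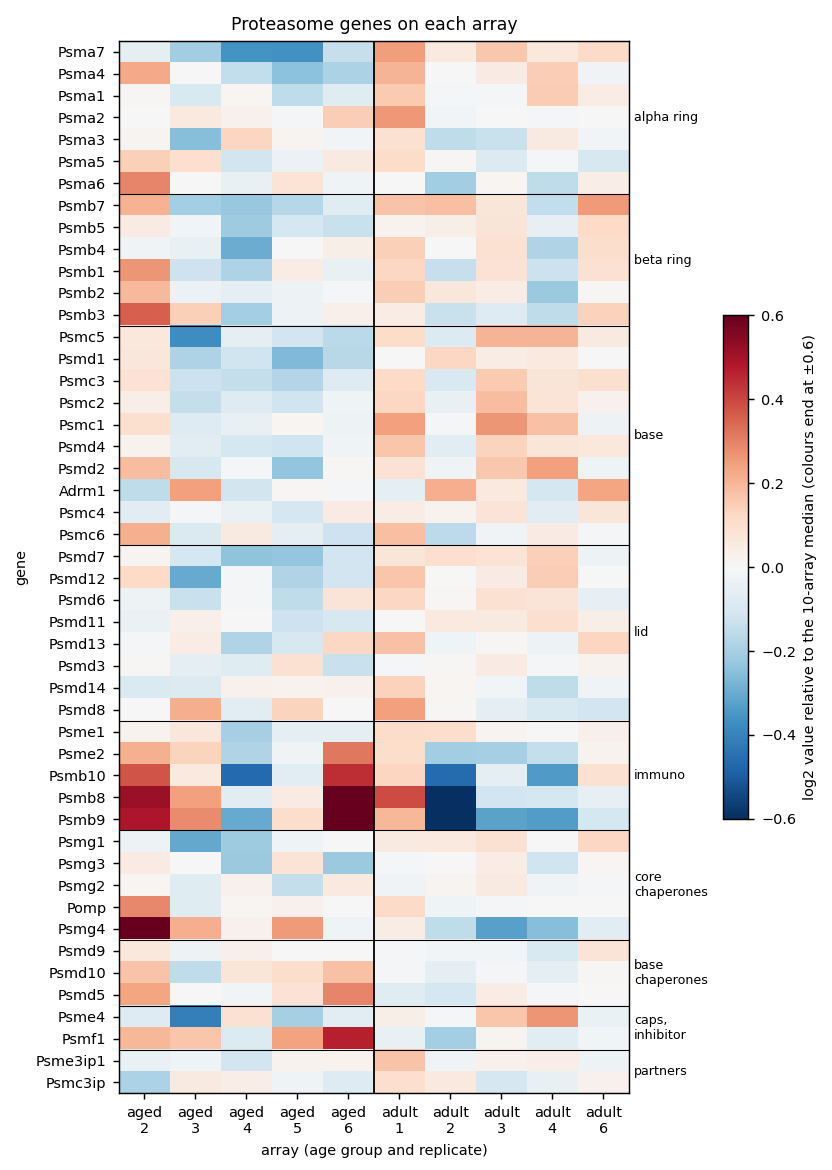
Log2 value of each of the 48 genes (rows, grouped by part) on each array (columns, aged left of the line, adult right), relative to the median over the 10 arrays. Blue is lower and red higher, and colours end at 0.6 on either side. Psma7 is blue on all 5 aged arrays and red on all 5 adult arrays. Psmb8 and Psmb9 pass the end of the scale on aged replicate 6 and adult replicate 2, and Psmg4 does on aged replicate 2.

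**Figure D2:**
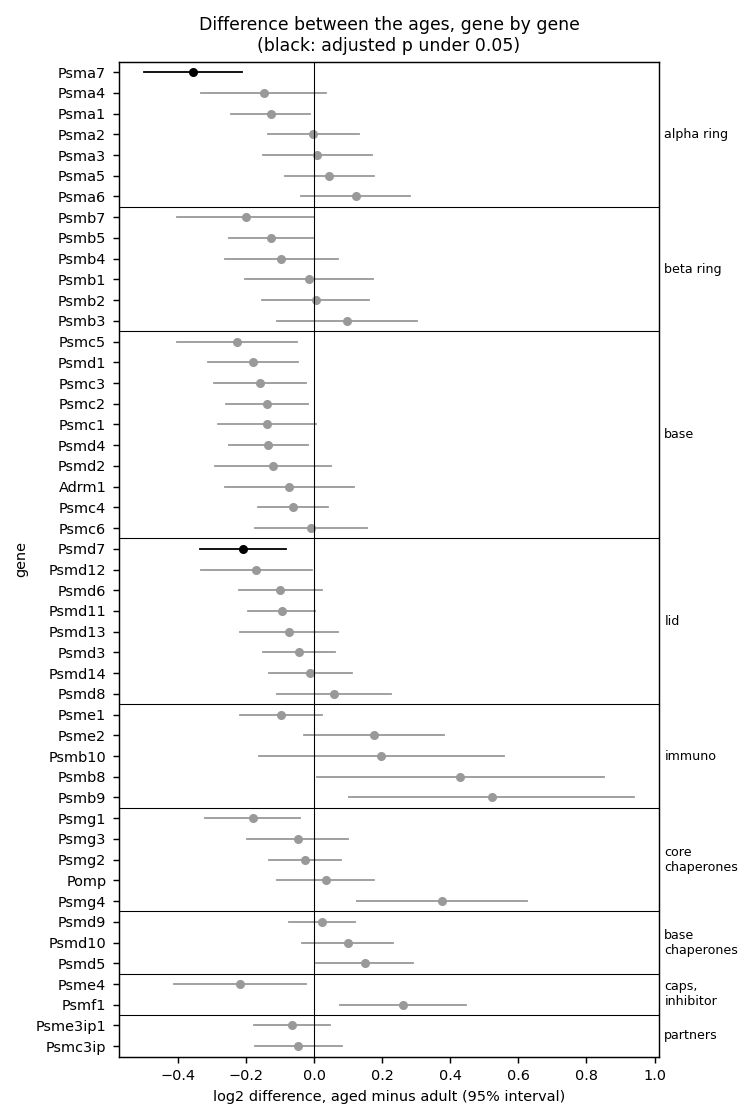
Aged minus adult log2 difference of each of the 48 genes (points) with its 95% interval from limma (lines), grouped by part, with n = 5 arrays per age. The 2 black points, Psma7 at -0.36 and Psmd7 at -0.21, had an adjusted p under 0.05, and all 10 base genes lie left of 0.

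Psma7, which encodes a subunit of the alpha ring, was the member with the clearest difference. Its values on aged replicates 2 to 6 were -0.06, -0.21, -0.36, -0.36 and -0.14, and on adult replicates 1, 2, 3, 4 and 6 they were 0.25, 0.06, 0.16, 0.06 and 0.12. Every aged array lay below every adult array. Psma7 was the 1 member of 46 whose ages did not overlap, and it was lower in aged hearts. Over all genes, aged arrays lay wholly below adult arrays in 4.78% and wholly above in 5.13%. Psma7 fell by 0.36 on the log2 scale (± 0.07 SE, adjusted p = 0.0062), or -21.8%. It kept this call in all 18 alternative settings, with adjusted p from 0.0022 to 0.0465. Psma7 has 1 probe set, so no second probe set could be compared. The settings that change only the summary of probe sets could not alter its values. In bulk tissue, fewer cells that express a gene and less of its RNA per cell cannot be told apart. Of the 14 cardiomyocyte markers 5 fell, against 5.09% of all genes, and 13 had lower means in aged hearts, against 51.8%. Tnnc1 had a higher mean, by 0.03. Myh6 had the lowest difference, -1.24, followed by Ryr2 at -0.55, and the median of the list was -0.14. The score of the list was -0.30 to -0.00 in aged hearts and 0.07 to 0.25 in adult hearts, without overlap. Their part in the values of Psma7 and of the other lower members was not tested.

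No other gene of the constitutive core passed the test. In the other 6 alpha ring genes the differences ran from -0.15 for Psma4 to 0.12 ± 0.07 SE for Psma6. Psma6 had 0.29, -0.00, -0.04, 0.08 and -0.03 on the aged arrays and 0.00, -0.21, 0.01, -0.15 and 0.04 on the adult arrays, and its ages overlapped. Among the 6 constitutive beta ring genes Psmb3, a structural subunit, had the highest difference, 0.10 ± 0.09 SE. Psmb5 and Psmb7 encode catalytic subunits, which cut after hydrophobic and after basic residues. Psmb5 had 0.05, -0.02, -0.21, -0.11 and -0.14 on the aged arrays, against 0.02, 0.03, 0.08, -0.05 and 0.12 on the adult arrays, a difference of -0.13 ± 0.06 SE (adjusted p = 0.182). Psmb7 had 0.21, -0.20, -0.23, -0.17 and -0.07 on the aged arrays, against 0.17, 0.18, 0.07, -0.15 and 0.25 on the adult arrays, a difference of -0.20 ± 0.09 SE (adjusted p = 0.193). For both genes aged replicate 2 was the highest aged array, and the ages overlapped. The 3 probe sets of Psmb5 disagreed. The brightest of them fell by 0.26 (adjusted p = 0.0495 over all probe sets), and the others gave -0.05 and -0.07, 1 of which carries the array maker's mark for probes that can match several transcripts. In all, 0 member probe sets rose and 3 fell, of Psma7, Psmb5 and Psmd7, against 4.42% and 3.6% of all 31042 probe sets on the array table.

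The base genes were lower in aged hearts by small amounts, and none passed the test. Psmc5, an ATPase of the ring, had the lowest difference, with 0.06, -0.37, -0.05, -0.12 and -0.16 on the aged arrays and 0.11, -0.08, 0.21, 0.20 and 0.05 on the adult arrays. Aged replicate 3 was the lowest array, and the ages overlapped (-0.23 ± 0.08 SE, adjusted p = 0.0909). Besides Psmc5, the ATPase genes Psmc3 (-0.16) and Psmc2 (-0.14), the scaffold gene Psmd1 (-0.18) and the ubiquitin receptor gene Psmd4 (-0.13) had an unadjusted p under 0.05, with adjusted p between 0.0772 and 0.129. The other scaffold gene, Psmd2, gave -0.12 ± 0.08 SE and the other receptor gene, Adrm1, -0.07 ± 0.09 SE. Psmc6, also an ATPase of the ring, was at the top of the base with -0.01 ± 0.08 SE, and its sign turned under 7 alternative settings. The base list averaged 0.06, -0.09, -0.06, -0.12 and -0.06 on the aged arrays and 0.10, -0.01, 0.13, 0.08 and 0.05 on the adult arrays. Of the aged arrays, replicate 2 alone reached the adult range.

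In the lid, Psmd7 fell. It encodes the partner of Psmd14, with which it forms the deubiquitinating pair of the cap. Psmd7 had 0.02, -0.10, -0.24, -0.23 and -0.12 on the aged arrays and 0.07, 0.10, 0.08, 0.14 and -0.03 on the adult arrays. Aged replicate 2 and adult replicate 6 overlapped. The difference was -0.21 ± 0.06 SE (adjusted p = 0.0348), or -13.5%. It rested on 1 of its 2 probe sets. This probe set fell by 0.42 (adjusted p = 0.0037), while the other gave 0.00 ± 0.06 SE, and both were in the brightest class. The call was lost in 9 of 18 alternative settings, with adjusted p up to 0.178, 7 of them settings that leave out 1 array. Psmd14, the deubiquitinase itself, gave -0.01 ± 0.06 SE, with probe sets from -0.11 to 0.04. The structural subunit gene Psmd12 gave -0.17 ± 0.08 SE (adjusted p = 0.172), and Psmd8 was the 1 lid gene of the 8 under the naming rule with a higher mean in aged hearts, 0.06 ± 0.08 SE. Sem1, a lid subunit outside that rule, is described with the ubiquitin genes.

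Aged replicate 2 stood apart from the other aged arrays in these parts. It was the highest aged array in 19 of the 31 core, base and lid genes, and the highest of all 10 arrays in 7. The mean of the 31 genes was 0.07 on aged replicate 2, between -0.09 and -0.04 on the other aged arrays, and between -0.01 and 0.12 on the adult arrays. This array also had the highest cardiomyocyte score of the aged arrays, -0.00, and the lowest macrophage score of them, 0.01. Without it, 8 members fell, where 6.61% of all genes fell: besides Psma7 and Psmd7 they were Psma4, Psmb7, Psmc3, Psmc5, Psmd1 and Psmd12. Psmd1 then gave -0.23 ± 0.05 SE (adjusted p = 0.0115), Psmb7 -0.28 ± 0.08 SE (0.0363) and Psmc5 -0.27 ± 0.08 SE (0.0393). The median of the constitutive core was -0.08 without that array and -0.02 with it. On the adult side, replicate 1 was the highest of the 5 in 16 of the 31 genes. Without aged replicates 3 and 6, Psma7 alone fell (-0.39, adjusted p = 0.0154), where 356 of all genes fell, against 724 on all arrays. In that setting the medians were -0.04 for the core, -0.13 for the base, -0.10 for the lid and 0.088 for the immunoproteasome. The immunoproteasome median was 0.12 without aged replicate 6 alone and 0.33 without aged replicate 4. Without adult replicate 1 the core median turned to 0.013.

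**Figure D3:**
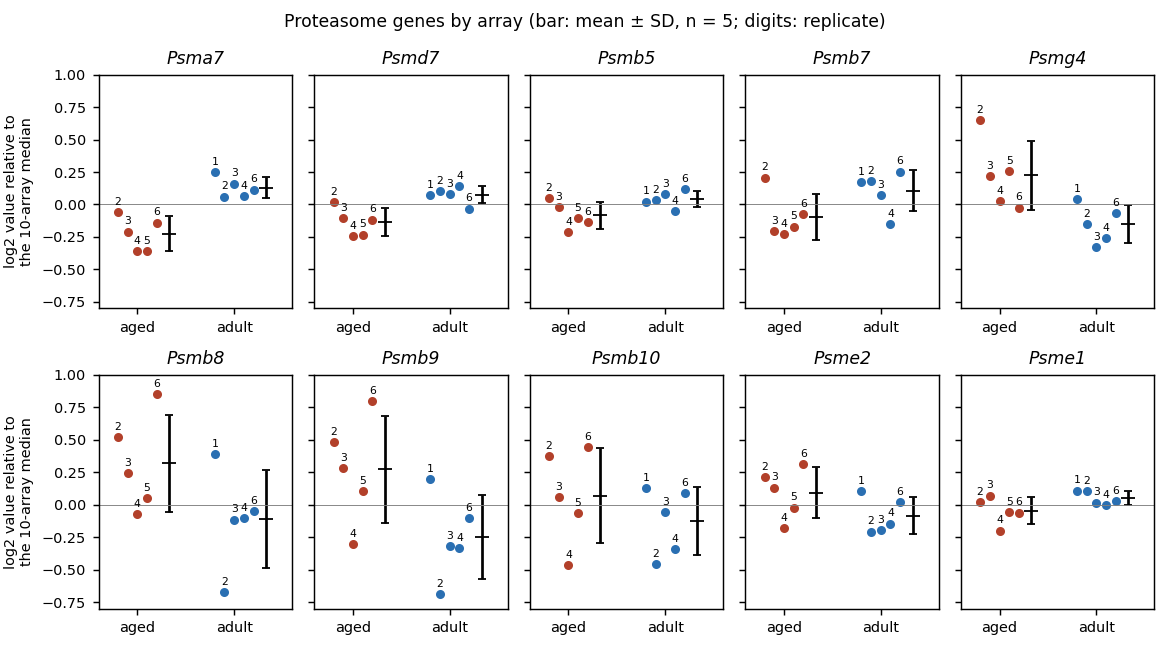
Log2 value on each array (points, aged left in red, adult right in blue, with digits for the replicate) of 10 genes, relative to the median over the 10 arrays, with mean and SD (n = 5) as black bars. Psma7 separates the ages, while Psmb8 and Psmb9 spread over more than 1 log2 unit among the adult or aged arrays, with aged replicate 6 at 0.85 and 0.80 and adult replicate 2 at -0.67 and -0.69.

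Among the immunoproteasome genes, Psmb8, Psmb9, Psmb10 and Psme2 had the same pair of arrays at the top, aged replicates 6 and 2. The promoters of these 4 genes are shown first, with that of Psmd7 for comparison, since an interferon response is the textbook route to their induction. They are the 300 bases from 250 before to 50 after the gene start in RefSeq (assembly GRCr8), written 5′ to 3′ along the gene. Capitals mark the letters GAAANNGAA (the core of an interferon response element) and TTCNNNGAA (the site of a STAT dimer), on either strand, where N is any base.
Psmb8, chr20:4656982-4657281, minus strand: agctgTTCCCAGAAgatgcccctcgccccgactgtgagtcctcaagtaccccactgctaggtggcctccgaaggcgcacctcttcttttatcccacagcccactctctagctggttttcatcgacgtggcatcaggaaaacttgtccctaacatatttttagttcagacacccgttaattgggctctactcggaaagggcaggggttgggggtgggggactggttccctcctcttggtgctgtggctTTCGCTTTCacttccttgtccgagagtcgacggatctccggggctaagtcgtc
Psmb9, chr20:4668750-4669049, plus strand: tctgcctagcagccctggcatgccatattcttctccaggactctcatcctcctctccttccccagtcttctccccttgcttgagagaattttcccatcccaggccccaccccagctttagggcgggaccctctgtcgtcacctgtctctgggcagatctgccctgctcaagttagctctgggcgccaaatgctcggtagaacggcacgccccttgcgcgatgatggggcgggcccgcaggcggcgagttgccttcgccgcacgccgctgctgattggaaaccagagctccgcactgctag
Psmb10, chr19:50743243-50743542, minus strand: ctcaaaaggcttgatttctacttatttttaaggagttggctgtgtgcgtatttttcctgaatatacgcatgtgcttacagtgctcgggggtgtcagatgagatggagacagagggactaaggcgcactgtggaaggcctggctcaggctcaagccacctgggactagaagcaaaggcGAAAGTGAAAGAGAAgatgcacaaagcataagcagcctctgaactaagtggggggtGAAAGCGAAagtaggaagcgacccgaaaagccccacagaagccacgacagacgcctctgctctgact
Psme2, chr15:33052702-33053001, minus strand: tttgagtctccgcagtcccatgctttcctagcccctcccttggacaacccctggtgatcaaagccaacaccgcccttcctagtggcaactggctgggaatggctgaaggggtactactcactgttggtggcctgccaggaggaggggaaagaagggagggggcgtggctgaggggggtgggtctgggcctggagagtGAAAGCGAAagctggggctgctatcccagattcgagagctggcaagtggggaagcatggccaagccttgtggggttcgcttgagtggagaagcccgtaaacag
Psmd7, chr19:52411267-52411566, minus strand: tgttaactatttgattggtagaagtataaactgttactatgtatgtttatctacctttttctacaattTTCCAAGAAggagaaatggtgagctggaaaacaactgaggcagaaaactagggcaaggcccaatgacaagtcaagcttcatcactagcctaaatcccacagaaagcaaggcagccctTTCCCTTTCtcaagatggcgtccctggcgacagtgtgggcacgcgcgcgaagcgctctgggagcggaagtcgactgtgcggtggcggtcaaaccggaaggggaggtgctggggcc

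GAAANNGAA stood in the windows of Psmb8, Psmb10 and Psme2, with 3 matches in Psmb10, 2 of which overlap, and also in that of Psmd7. Of the 44 members with a promoter in the table, 10 (22.7%) held it, against 9.71% of all 33469 promoters. Besides the 4 above they were Psma4, Psmb2, Psmb3, Psmd11, Psmg4 and Pomp. TTCNNNGAA was found in 4 members (9.09%, against 8.87% of promoters), Psmb8 and Psmd7 among them. Psmb9 held neither. CCAAT, a common promoter element, was in 23 members (52.3%, against 37.5%), and TGACNNNGC, the letters of the antioxidant response element, in 8 (18.2%, against 12.1%). The kappaB site was in Psmb2 alone (2.27%, against 4.18%). All were searched on both strands, and the only overlap of different motifs was that of TGACNNNGC with CCAAT in Psmb2. Psma7, Psmd6, Psmd12 and Psmd14 had no entry in the table. These matches are descriptions of letters and not of bound sites.

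By limma, 0 of the 5 immunoproteasome genes passed the test, and 2, Psmb8 and Psmb9, had an unadjusted p under 0.05. Upward, 6.77% of all genes passed the test and 14.3% the unadjusted limit. Psmb9, the inducible subunit that takes the place of Psmb6, had 0.48, 0.28, -0.30, 0.10 and 0.80 on the aged arrays and 0.20, -0.69, -0.32, -0.33 and -0.10 on the adult arrays. Its difference was the largest of all members, 0.52 ± 0.19 SE (adjusted p = 0.101), or 1.44-fold, and the ages overlapped. Psmb8, which takes the place of Psmb5, had 0.52, 0.25, -0.07, 0.05 and 0.85 on the aged arrays and 0.39, -0.67, -0.11, -0.10 and -0.05 on the adult arrays. Adult replicate 1 lay within the aged range, and the difference was 0.43 ± 0.19 SE (adjusted p = 0.181). Psmb10, which takes the place of Psmb7, had 0.38, 0.06, -0.46, -0.06 and 0.44 on the aged arrays, against 0.13, -0.46, -0.06, -0.34 and 0.09 on the adult arrays (0.20 ± 0.17 SE, adjusted p = 0.503). Aged replicate 4 and adult replicate 2 were its lowest arrays, and the ages overlapped.

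Psme1 and Psme2 encode the alternative cap, PA28, and gave differences of opposite sign. Psme2 had 0.21, 0.13, -0.18, -0.02 and 0.32 on the aged arrays, against 0.11, -0.21, -0.20, -0.14 and 0.02 on the adult arrays (0.18 ± 0.09 SE, adjusted p = 0.265). Psme1 had 0.02, 0.07, -0.20, -0.05 and -0.06 on the aged arrays, against 0.11, 0.10, 0.02, -0.00 and 0.03 on the adult arrays (-0.10 ± 0.06 SE, adjusted p = 0.301), with probe sets at -0.19 and 0.00. Psmb8, Psmb9, Psmb10 and Psme2 shared their order at the top, with aged replicate 6 first and aged replicate 2 second. At the bottom, adult replicate 2 was lowest for Psmb8, Psmb9 and Psme2, and for Psmb10 it was next to aged replicate 4. For Psme1, adult replicates 1 and 2 were highest. The SD around the group means ran from 0.081 for Psme1 to 0.374 for Psmb8 in the immunoproteasome. Its median was 0.319 over these 5 genes, 0.108 over the 41 other proteasome genes and 0.102 over all genes. Without aged replicate 4, Psmb9 rose (0.67 ± 0.17 SE, adjusted p = 0.0306), as did Psmf1 and Psmg4, where 6.09% of all genes rose.

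Each inducible catalytic subunit displaces a constitutive one, so the difference between the members of a pair was taken on each array. Of the planned pairs 2 could be formed, since Psmb6 had no probe set of its own. The pairs were chosen with earlier results of these data known. Psmb8 minus Psmb5 was 0.47, 0.26, 0.14, 0.16 and 0.99 on the aged arrays, against 0.37, -0.71, -0.19, -0.05 and -0.17 on the adult arrays. All 5 aged arrays were above 0 and 4 of 5 adult arrays below it, and adult replicate 1 lay inside the aged range. The means were 0.40 ± 0.35 in aged hearts and -0.15 ± 0.38 in adult hearts (SD, n = 5 each), a difference of 0.56 (two-sided exact permutation p = 0.0397, adjusted over the 2 pairs 0.0397). Psmb10 minus Psmb7 was 0.17, 0.26, -0.24, 0.11 and 0.52 on the aged arrays, against -0.04, -0.64, -0.13, -0.19 and -0.16 on the adult arrays. The means were 0.16 ± 0.27 in aged hearts and -0.23 ± 0.23 in adult hearts (SD, n = 5 each), a difference of 0.40 (exact permutation p = 0.0397, adjusted 0.0397), and the ages overlapped through aged replicate 4. With 5 arrays per age the smallest p this test can give is 0.00794. In both pairs aged replicate 6 was the highest array and adult replicate 2 the lowest. The 2 tests use the same arrays and are not independent. Both pairs missed the threshold when any 1 of 8 arrays was left out, with adjusted p up to 0.0952, and also under quantile normalization. They kept it without aged replicate 4 or adult replicate 1. These are differences between centred log2 values, which say nothing about which subunit was more abundant.

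Chaperones of the core and of the base, the remaining caps and the inhibitor had 0 of 10 genes past limma's test. Of all genes, 6.77% rose and 5.09% fell. At an unadjusted p under 0.05, Psmg4, Psmd5 and Psmf1 were higher and Psmg1 and Psme4 lower, against 14.3% and 12% of all genes. Psmg4, part of a chaperone pair with Psmg3 that helps to build the alpha ring, had 0.65, 0.22, 0.02, 0.26 and -0.02 on the aged arrays and 0.04, -0.15, -0.33, -0.26 and -0.07 on the adult arrays. Aged replicate 2 was the highest of all arrays, and aged replicates 4 and 6 lay within the adult range (0.38 ± 0.12 SE, adjusted p = 0.0534). It passed under 5 of 18 alternative settings. They include the setting without the dimmest class, which could not alter the values of Psmg4, since its only probe set is in the brightest. Its partner Psmg3 gave -0.05 ± 0.07 SE. Psmg1, of the other chaperone pair, had -0.03, -0.31, -0.22, -0.03 and 0.00 on the aged arrays, against 0.06, 0.06, 0.09, -0.00 and 0.12 on the adult arrays (-0.18 ± 0.06 SE, adjusted p = 0.0894), and its partner Psmg2 gave -0.03 ± 0.05 SE. Pomp, which helps the beta subunits to mature and the core to close, gave 0.03 ± 0.07 SE. The base chaperone genes Psmd5 (0.15 ± 0.07 SE), Psmd10 (0.10 ± 0.06 SE) and Psmd9 (0.02 ± 0.04 SE) all had higher means in aged hearts, the opposite of the base genes. The 2 probe sets of Psmd9 gave 0.14 and -0.09.

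Psmf1 encodes PI31, a protein named as a proteasome inhibitor. It had 0.20, 0.17, -0.08, 0.24 and 0.47 on the aged arrays and -0.04, -0.21, 0.02, -0.06 and -0.02 on the adult arrays. Of the aged arrays, replicate 4 alone was within the adult range (0.26 ± 0.09 SE, adjusted p = 0.0662), and without it Psmf1 rose (0.33 ± 0.07 SE, adjusted p = 0.0147). Psme4 encodes PA200, a cap that works without ATP. It had -0.08, -0.41, 0.09, -0.20 and -0.07 on the aged arrays and 0.03, -0.01, 0.17, 0.27 and -0.04 on the adult arrays. The difference was -0.22 ± 0.09 SE (adjusted p = 0.141), with its 3 probe sets between -0.27 and -0.18.

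Most genes that supply and deliver ubiquitinated proteins did not pass the test. Of 22 measured genes of this list 2 rose and 1 fell, where 6.77% and 5.09% of all genes did, and the median was -0.01. Sem1 encodes a small lid subunit that the naming rule does not reach. It had 0.17, 0.11, 0.08, 0.07 and 0.01 on the aged arrays, all above the adult arrays at -0.01, -0.07, -0.24, -0.17 and -0.06 (0.20 ± 0.05 SE, adjusted p = 0.0308). Zfand2a, a stress-induced zinc finger protein that binds the proteasome, rose by 0.25 (adjusted p = 0.0431). Ufd1, a cofactor of the unfoldase Vcp, had -0.11, -0.09, -0.06, -0.18 and -0.05 on the aged arrays, all below the adult arrays at 0.27, 0.05, 0.12, 0.24 and 0.03. It fell by 0.24 on the log2 scale (± 0.06 SE, adjusted p = 0.0181). Ecpas, which encodes an adaptor that binds core and cap, gave -0.23 ± 0.07 SE (adjusted p = 0.0548). Without aged replicates 3 and 6, Ufd1 fell (0.0476), while Sem1 (0.0654) and Zfand2a (0.127) did not pass. Over all genes 656 rose and 356 fell in that setting, against 962 and 724 on all arrays.

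Downstream of the immunoproteasome, 3 of 13 genes of MHC class I antigen processing rose and 1 fell, where 6.77% and 5.09% of all genes did, and the median was 0.04. B2m, the light chain of class I molecules, had 0.17, 0.07, 0.03, 0.05 and 0.26 on the aged arrays, all above the adult arrays at -0.02, -0.46, -0.22, -0.11 and -0.15 (0.31 ± 0.08 SE, adjusted p = 0.0252). Nlrc5, a transactivator of class I genes, rose by 0.31 (adjusted p = 0.0131) without overlap. RT1-S3, a class I gene whose near-identical relatives its probes may also detect, rose by 0.60 (adjusted p = 0.0271), with overlap. Pdia3, a chaperone of peptide loading and of other glycoproteins, fell by 0.21 (adjusted p = 0.0304). Tap1, which encodes a subunit of the peptide transporter, is the divergent neighbour of Psmb9 on chromosome 20, with gene starts 457 bases apart in GRCr8. It had 0.06, 0.24, -0.17, 0.04 and 0.19 on the aged arrays and 0.01, -0.19, -0.11, -0.11 and -0.08 on the adult arrays (0.17 ± 0.07 SE, adjusted p = 0.171). As for Psmb9, aged replicate 4 was the lowest aged array and adult replicate 2 the lowest of all. Without aged replicates 3 and 6, RT1-S3 rose (0.0323), while B2m (0.0931), Nlrc5 (0.0581) and Pdia3 (0.0731) did not pass. Over all genes 656 rose and 356 fell in that setting, against 962 and 724 on all arrays.

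Among 16 genes of interferon gamma signalling and its targets, 1 rose and 0 fell, where 6.77% and 5.09% of all genes did. The median was 0.15. At an unadjusted p under 0.05, 7 were higher and 1 was lower, against 14.3% and 12% of all genes. Icam1, a leukocyte adhesion molecule, had 0.19, 0.22, 0.06, 0.17 and 0.34 on the aged arrays, all above the adult arrays at -0.06, -0.12, -0.36, -0.30 and -0.41 (0.44 ± 0.08 SE, adjusted p = 0.0044). The receptor gene Ifngr1 gave 0.27 ± 0.08 SE (adjusted p = 0.0501), the guanylate-binding protein gene Gbp2 0.62 ± 0.21 SE (0.0704) and the transcription factor gene Irf8 0.45 ± 0.15 SE (0.0753). Gbp2 was highest on aged replicate 6 at 1.06 and lowest on adult replicate 2 at -0.78, as Psmb8 and Psmb9 were. The other aged arrays differed in order: on aged replicates 2, 3 and 4 Gbp2 had 0.04, -0.04 and 0.17, and Psmb9 0.48, 0.28 and -0.30. The score of the 16 genes was 0.04, -0.12, 0.05, 0.07 and 0.27 on the aged arrays and 0.07, -0.22, -0.14, -0.13 and -0.06 on the adult arrays. Ifng itself gave -0.10 ± 0.06 SE (adjusted p = 0.350). It was measured only in the dimmest brightness class, so this value does not settle whether Ifng RNA changed.

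Many macrophage markers rose in aged hearts, and fewer lymphocyte markers. Of all genes, 6.77% rose and 5.09% fell. Of 16 macrophage and monocyte markers 9 rose, with scores of 0.01, 0.11, 0.35, 0.62 and 0.95 on the aged arrays, against 0.00, -0.42, -0.34, -0.22 and -0.25 on the adult arrays. Of 16 T and NK lymphocyte markers 3 rose, Gzma, Gzmb and Ccl5, while 13 had higher means and 3 lower ones. At an unadjusted p under 0.05, 8 were higher and 0 lower, where 14.3% and 12% of all genes were. T cell genes differed: Lck gave 0.75 ± 0.25 SE (adjusted p = 0.0778), Cd3g 0.26 ± 0.14 SE, Cd3e 0.02 ± 0.08 SE and Cd3d -0.12 ± 0.06 SE. Among the immunoproteasome genes, aged replicate 6 was highest for 4 and had high scores of both lists. Aged replicate 2, second for the same 4 genes, had macrophage and lymphocyte scores of 0.01 and 0.08. Its endothelial marker score was 0.24, close to 0.23 on aged replicate 3, with 0.17 on aged replicate 6. Aged replicate 4, the lowest aged array for all 5 immunoproteasome genes, had a macrophage score of 0.35. The part of these cells in the immunoproteasome values was not tested. Of 3 dendritic cell markers 1 rose, and of 9 endothelial markers 2 rose. Of 5 B and plasma cell markers 0 rose and 0 fell by limma. At an unadjusted p under 0.05, 1 was higher and 1 lower, against 14.3% and 12% of all genes. Of 10 fibroblast markers 5 rose, with scores of 0.05 to 0.52 on the aged arrays and -0.47 to -0.01 on the adult arrays. Of 6 atrial muscle markers 2 rose, Nppa (2.69) and Myl7 (1.45), with scores of 0.10 to 0.51 on the aged arrays and -0.71 to -0.19 on the adult arrays. The 4 others did not pass: Myl4 (0.26), Sln (0.16) and Nr2f2 (0.09) were higher and Tbx5 (-0.29, adjusted p = 0.0524) lower. The fibroblast and atrial scores separated the ages, and the part of fibroblasts or atrial tissue in the proteasome values was not tested. Without aged replicates 3 and 6 the differences were 0.28 for Psmb8, 0.34 for Psmb9, 0.08 for Psmb10 and 0.09 for Psme2, and none passed.

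**Figure D4:**
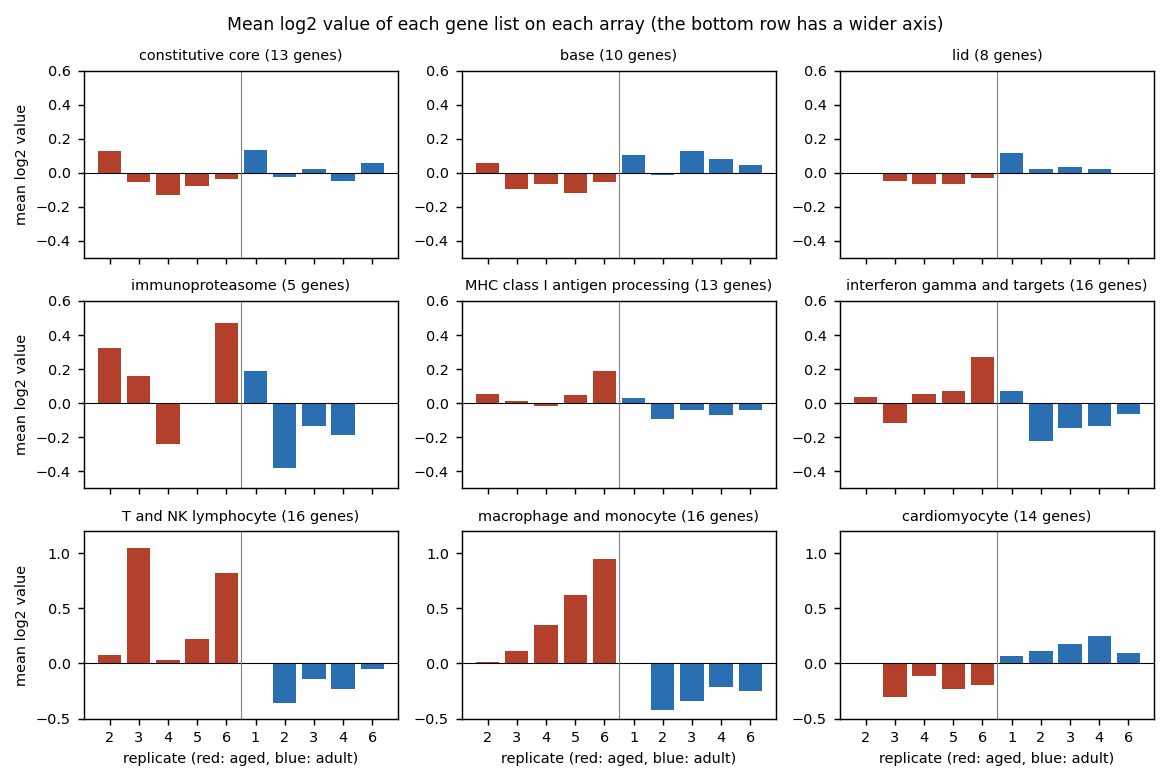
Mean log2 value of the genes of each list (bars) on each array, aged in red on the left and adult in blue on the right, relative to the median over the 10 arrays. The base is below 0 on 4 of 5 aged arrays, the immunoproteasome is highest on aged replicates 6 and 2 (0.47 and 0.32), and the cardiomyocyte markers separate the ages.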

How the data were processed

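Per the series text, RNA was measured on Rat Genome 230 2.0 arrays, 5 from aged rats of 24 months and 5 from adult rats of 6 months. The authors' deposited table holds signed log2 values of 31042 probe sets, each centred on its median over the 10 arrays. Base 2 was taken because the smallest increments in the table have the size that it would give. No source used here gives the software or normalization. The increments also gave 3 approximate brightness classes.

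Probe sets with 1 gene symbol in the platform annotation (20826, of which 20758 matched RefSeq by identifier) were averaged into 14217 genes. Those with several symbols (436) or none listed (9780) were not named. The 5 aged arrays were set against the 5 adult arrays by limma (version 3.58.1, functions lmFit and eBayes, R version 4.3.3), without covariates, with Benjamini-Hochberg adjustment over all genes or over all probe sets, and the pairs of subunits with an exact permutation test in Python 3.11.15. The fit was tested on simulated data. The array table gives no depth, and the number of arrays limits the precision. No 2 arrays correlated by more than 0.57 over probe sets. Each array was treated as 1 sample, which does not show that it is a separate rat. No batch or date is given in the labels.

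Members, gene lists and tests were chosen with earlier results of these data known. Genes named by rule are members with an adjusted p under 0.05, the immunoproteasome, the catalytic subunits, the highest and lowest member of each part and the 4 members of smallest p in each pathway list. Other members, Tap1 and the markers named were chosen after their values were seen. Alternatives changed the probe set summary, the normalization, the weights and the arrays used.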

Additional observations from a re-analysis of the deposited data

Results flagged for a closer look

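On adult replicate 2, Psmb10 minus Psmb7 was -0.64, apart from the other adult arrays, which lay between -0.19 and -0.04. The gap to the nearest of them was 0.749 of the range of the adult group, above Dixon's 95% limit of 0.71 for 5 arrays. This was 1 of 48 groups examined, of 22 genes and 2 pairs at each age, and chance passes that limit in about 1 in 20 groups. The same array was the lowest of all 10 for Psmb8, Psmb9 and Psme2, and had the highest adipocyte marker score, 1.13, against -0.23 to -0.05 on the other adult arrays. Without it the difference of the pair was 0.30 (exact permutation p adjusted over the pairs 0.0794).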

How the results depend on the processing

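The fall of Psma7 passed in all 18 alternatives, but those that change only the probe set summary could not alter its values, since it has 1 probe set. Leaving out 1 array at a time gave 0 to 3 members risen and 1 to 8 fallen, and 0 to 2 member probe sets risen and 2 to 5 fallen. The most falls came without aged replicate 2 and the most rises without aged replicate 4. Array weights gave 1 risen (Psmg4) and 4 fallen (Psmc3 and Psmd1 added). Without the dimmest class 1 member rose, Psmg4, though its values could not change there, since its only probe set is in the brightest class. Without both aged replicates 3 and 6, 1 member fell, 0 genes of the ubiquitin list rose, and in the MHC class I list 1 rose and 0 fell. Over all genes 656 rose and 356 fell in that setting, against 962 and 724 on all arrays. Members lower at an unadjusted p under 0.05 then numbered 3, and 5 to 16 without 1 array (5 without aged replicate 5, 6 without adult replicate 1 or 3), against 12 on all arrays. Members with a lower mean numbered 26 to 31 in all settings. Of all genes, 558 to 1277 rose and 348 to 962 fell over the alternatives.

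Psmb8 minus Psmb5 gave 0.45 with quantile normalization (adjusted p = 0.0556), 0.41 without aged replicates 3 and 6 (0.214), and 0.41 to 0.69 without 1 array. Psmb10 minus Psmb7 gave 0.36 (0.0556), 0.25 (0.214) and 0.30 to 0.50 in the same settings, with the cause not tested in each case. These are exact permutation tests. With 3 aged and 5 adult arrays, fewer arrangements exist. Psmc6 turned sign, with 0.049 under the replicate block, 0.063 without aged replicates 3 and 6 and -0.062 to 0.035 without 1 array.

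With the replicate number as a block, 1 member rose (Psmb9, 0.68, adjusted p = 0.0456), 1 fell (Psma7, -0.29, adjusted p = 0.0465), and 1 member probe set rose and 1 fell. At an unadjusted p under 0.05, 4 members were lower. Over all genes 721 rose and 348 fell. The numbers were not taken to pair the samples: deviations of the 4 pairs of arrays with the same number correlated by 0.0349, 0.0484, 0.145 and 0.0444, and aged replicate 6 correlated best with adult replicate 1 (0.241).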
